A study of Rattus norvegicus with 16 samples.

Results

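The genes described here are 36 genes of the lysosome and of autophagy, taken as a list of names. The rule uses no measured value, but the list was drawn up with earlier results of these data known. Every array probe whose accession belongs to one of them was used, which gave 43 probes, 29 genes having 1 probe and 7 genes having 2. For 35 of the 36 genes a probe stood above background, among 18123 features tested in all (11085 named genes and 7038 probes without a name). The exception was Ctsz, a cathepsin with carboxypeptidase activity, whose 1 probe was not well above background on any of the 16 arrays, so it has no level or fold here. The list holds structural and transport proteins of the lysosomal membrane, hydrolases of its lumen, subunits of its proton pump, the transcription factor Tfeb, and the proteins that start, build and load autophagosomes.

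RNA was measured on 1-colour Agilent arrays in primary hippocampal neuron cultures made from Sprague-Dawley rats at embryonic day 18. Cultures were left untreated or given 5 µM hydroxyurea, an inhibitor of ribonucleotide reductase, for 2, 6, 12 or 24 h, with 3 samples in each of the 5 groups. Treated cultures were changed to medium with B27 lacking antioxidants before the drug was added, and how long untreated cultures spent in such medium is not given. The study asked whether the drug shields such neurons from stress, and the comparisons ask which transcripts differed during exposure. Untreated replicate 1 was hybridised on 2 arrays, which were averaged as 1 sample. The extraction protocol names hippocampal tissue where the other labels name cultured neurons, and no label says that replicates were separate cultures, so every p-value reflects only how these samples varied, and part or all of that may be technical.

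Lysosomes are acidic compartments in which hydrolases break down proteins, glycans and lipids, and a vacuolar proton pump keeps their pH low. In autophagy a double membrane forms around cytoplasm or organelles, closes into an autophagosome and fuses with a lysosome. When lysosomes are stressed or nutrients are short, TFEB and its relatives enter the nucleus and raise transcription of lysosomal and autophagy genes by binding an E-box element in their promoters. TFEB is held in the cytoplasm by phosphorylation, so its activity is not read from its transcript. Neurons do not divide and rely on this pathway to clear damaged proteins, and mutations in several of these genes (Npc1, Hexa, Tpp1, Ppt1, Cln3, Ctsd) are known causes of lysosomal storage disease with neurodegeneration.

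Promoters were searched for the element bound by TFEB, and for no other, so that the members carrying it could be set beside their values. Among RefSeq promoters (build GRCr8, 250 bases before to 50 after each gene's start), 29 of the 36 genes had an entry. The E-box CACGTG, which reads the same on both strands, lay in 7 of these 29 genes, Lamp1, Ctsd, Gaa, Cln3, Mcoln1, Atp6v0d1 and Atg5, against 7.08% of all 27457 genes with an entry. The longer palindrome TCACGTGA, which contains the E-box and is the core of the element bound by TFEB, lay in 5 of 29, Lamp1, Ctsd, Cln3, Mcoln1 and Atp6v0d1, against 0.896% of all genes. A match is a description of these letters and not a measured binding site. In Mcoln1 the match lay after the gene's start and is not printed. The other 4 are given 5′ to 3′ on the gene's strand, with the palindrome in capitals. Lamp1 has 2 matches, 66 and 39 bases before the start (chr16:83075069-83075155, minus strand).
Lamp1: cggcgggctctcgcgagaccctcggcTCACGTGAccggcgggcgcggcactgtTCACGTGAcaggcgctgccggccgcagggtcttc
The match of Ctsd lies 11 bases before the start (chr1:206968822-206968858, minus strand).
Ctsd: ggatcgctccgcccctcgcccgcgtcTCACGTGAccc
The match of Cln3 lies 39 bases before the start (chr1:190597935-190597994, minus strand).
Cln3: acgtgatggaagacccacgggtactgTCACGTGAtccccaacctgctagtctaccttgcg
The match of Atp6v0d1 lies 53 bases before the start (chr19:50357268-50357327, minus strand).
Atp6v0d1: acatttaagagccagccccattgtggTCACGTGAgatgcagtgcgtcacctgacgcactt

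The 16 arrays had 64.6% to 70.4% of their probes well above background and 0 saturated spots. The scatter of repeated spots, as the median coefficient of variation in the file headers, was 8.06% to 13.1% on 14 arrays. It was 17.3% for untreated replicate 1 on its first array and 28.1% for 12 h replicate 3. That 12 h sample also stood apart on the leading principal component (29.7% of variance), at -67.2 where the rest lay between -5.21 and 11.6. Scores deposited for replicates 1 and 3 of the 24 h group fitted the array of the other one, which leaves every group mean as it is. Values below are log2 of the processed spot signal minus the array's 75th percentile. They can be compared between samples for 1 probe and not between probes.

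No member passed the test at any time. With limma's test and Benjamini-Hochberg adjustment over all 18123 features, 0 of 35 members had an adjusted p under 0.05 at 2, 6, 12 or 24 h, for the 4 times averaged against untreated, late (12 and 24 h) against early (2 and 6 h), or among the 4 times. The background was the same, with 0% of all features called in each of the 7 comparisons. At an unadjusted p under 0.05, the members were Uvrag at 2 h and Tfeb at 24 h, with 0 in the other 5 comparisons. Over all features the share with such a p was 1.19% at 2 h, 0.739% at 6 h, 2.32% at 12 h, 0.866% at 24 h, 1.68% for the 4 times averaged, 1.35% late against early and 1.09% among the 4 times.

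The width of the intervals says how large a change these arrays could have missed. At 2 h, 33 of 35 members had a 95% interval that lay within a 1.5-fold change either way, and the exceptions were Tfeb and Uvrag. That number was 32 at 6 h (Psap beside those 2), 32 at 12 h (Tfeb, Cln3 and Atp6v1a outside) and 33 at 24 h (Tfeb and Uvrag outside). It was 34 in the mean of the 4 times and late against early, with Tfeb outside. Every measured member except Tfeb had an interval within 2-fold in each comparison with untreated. The median SE over members was 0.13 on the log2 scale at a single time and 0.11 in the mean of the 4 times. Shifts of that size, and larger ones that still lie within the intervals, were not resolved. For Lamp1 at 2 h an SE of 0.13 went with a 95% interval from -0.31 to 0.26. The adjusted test asks for more still, as Tfeb at 24 h did not pass it with a difference of 0.94 (SE 0.39). The intervals measure each gene alone and are not adjusted for the number of genes. Like the p-values, they reflect only how these samples varied, which no label says were separate cultures.

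Members were also about as often higher as lower. At 2 h 21 of 35 had a higher mean than untreated, with a median log2 difference of 0.02, against 50.5% of all features and a median of 0.00. At 6 h 16 were higher (median -0.01, against 47.9% of features and -0.00), and at 12 h 20 were higher (0.04, against 55.4% and 0.02). At 24 h 24 of 35 were higher, with a median of 0.04 against 54.6% and 0.01. These 24 rested on 24 h replicate 2, without which 14 of 35 were higher and the median was -0.02. Likewise 13 were higher at 2 h without 2 h replicate 3, and 15 at 12 h without 12 h replicate 3. Averaged over the 4 times 20 of 35 were higher (0.01, against 50.9% and 0.00), and late against early 22 were (0.03, against 55.8% and 0.01). The arrays lay on 2 slides. Replicates 1 and 2 of the 2 and 6 h groups lay on slide 1, and their replicate 3 on slide 2. Of the late groups only 12 h replicate 1 and 24 h replicate 3 lay on slide 1. Late against early is therefore in part a comparison of slides. With slide as a block 21 of 35 were higher there (median 0.007), within slide 1 18 (0.007) and within slide 2 17 (-0.009). The 5 comparisons with untreated share the 3 untreated samples, so their counts are not independent of each other.

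**Figure D1:**
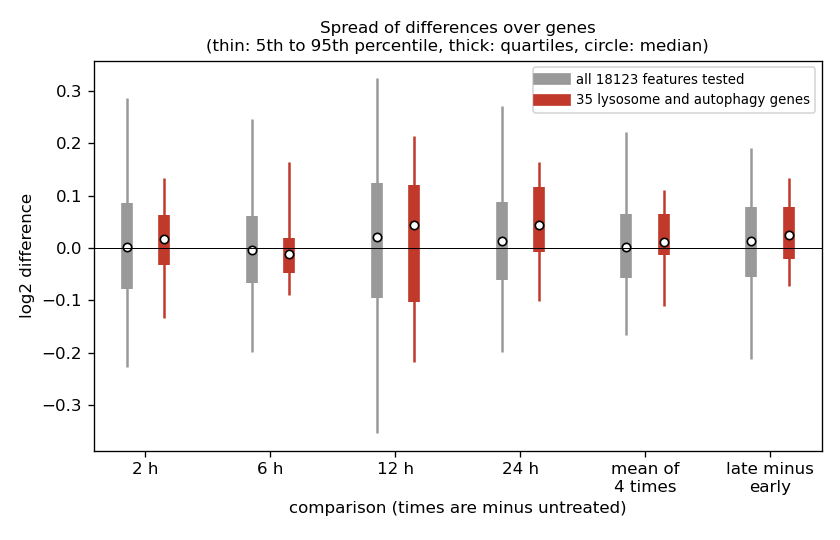
Log2 differences over genes in each comparison, for the 35 measured lysosome and autophagy genes (red) and all 18123 features tested (grey). The thin bars run from the 5th to the 95th percentile, the thick bars span the quartiles and the circles are medians; member medians lie between -0.01 and 0.04, and those of all features between -0.00 and 0.02.

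Treated and untreated values of a member seldom lay apart. The 3 treated values lay above all 3 untreated ones for 1 member at 2 h, Wipi1, where 3.34% of all features did so, and below them for 1, Becn1, against 3.01%. At 6 h this was so for 0 members above (1.45% of features) and for Becn1 below (2.39%). At 12 h Ctsd lay above (3.02%) and Neu1 and Scarb2 below (2.04%), and at 24 h 0 members did either (1.37% and 1.57%). Over all 12 treated samples against the 3 untreated ones, 0 members were apart, against 0.0386% of features above and 0.0221% below. Becn1 was the only member apart at more than 1 time, and both comparisons use the same untreated samples. The repeat array of untreated replicate 1 read 0.525 for Becn1, below its 6 h values. For Scarb2 it read -2.332, below the 12 h values. With that array alone for the sample, those groups overlap.

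**Figure D2:**
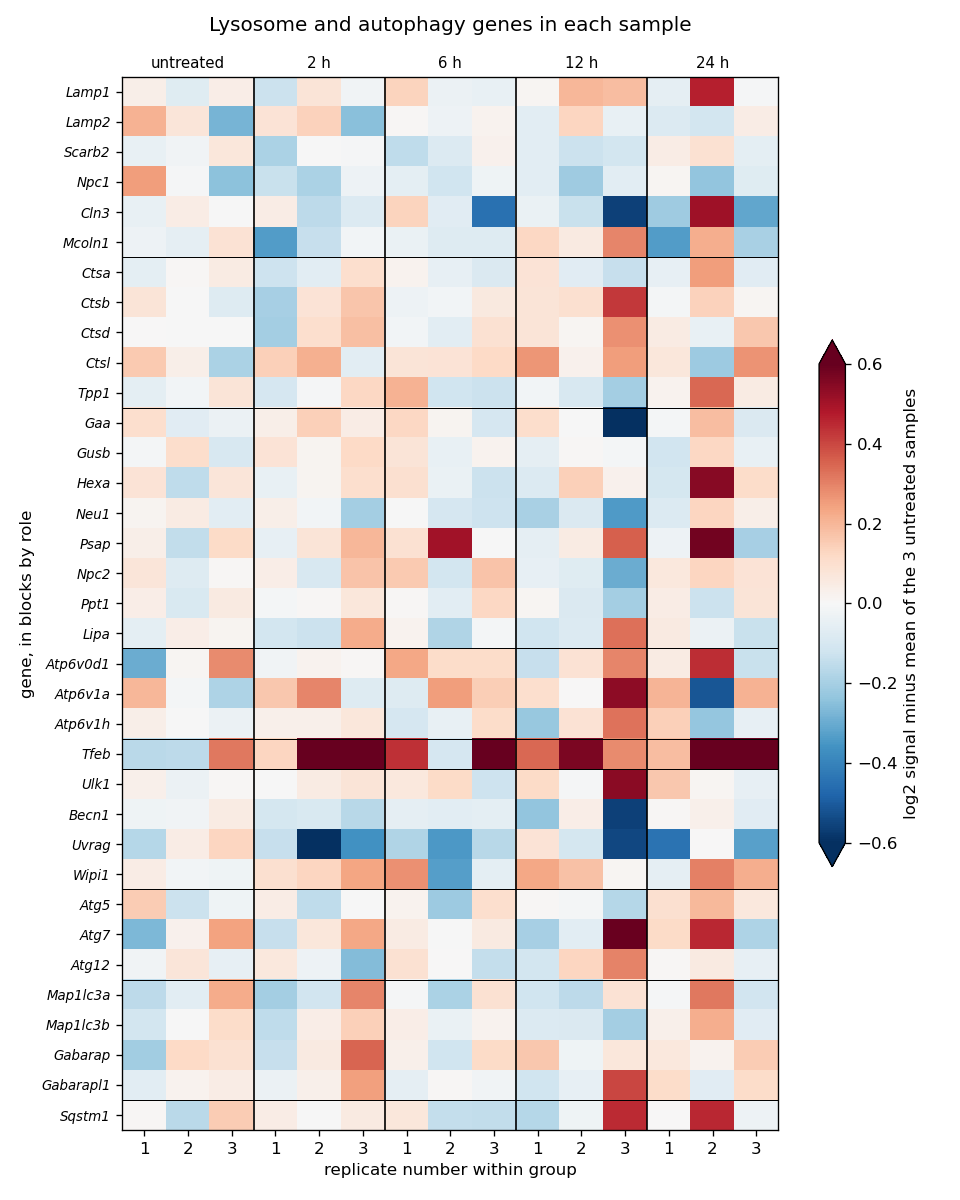
Log2 signal of each of the 35 measured members (rows, in blocks by role) in each of the 15 samples (columns, by group and replicate number), as the difference from the mean of the 3 untreated samples; the colour scale ends at 0.6 either way. The sample 24 h replicate 2 holds the highest value of 16 rows and 12 h replicate 3 that of 10, and the row of Tfeb is red in 11 of 12 treated samples.

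Transcripts of lysosomal membrane proteins stood near their untreated level. Averaged over the 4 times their log2 differences ran from -0.11 to 0.07, with 1 of 6 higher and SEs between 0.08 and 0.16. Lamp1, the heavily glycosylated protein that lines the membrane and serves as its usual marker, had untreated values of 2.41, 2.30 and 2.42. Its values were 2.25, 2.46 and 2.36 at 2 h, 2.51, 2.34 and 2.33 at 6 h, 2.39, 2.58 and 2.56 at 12 h, and 2.32, 2.84 and 2.37 at 24 h. The groups overlapped at every time, and the highest of all values, 2.84, was that of 24 h replicate 2. The differences of Lamp1 from untreated were -0.02, 0.02, 0.13 and 0.13 at the 4 times (SE 0.13 each). Late against early it stood at 0.14 (SE 0.09, unadjusted p = 0.167 and adjusted p = 1.00 by limma), the smallest p among members in that comparison. It was 0.05 without 24 h replicate 2 and -0.01 within slide 1 alone.

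Mcoln1 encodes the calcium channel of the lysosomal membrane, TRPML1, and had the second smallest p late against early. Untreated values were 0.74, 0.72 and 0.86. They were 0.44, 0.64 and 0.76 at 2 h, 0.73, 0.69 and 0.70 at 6 h, 0.90, 0.83 and 1.07 at 12 h, and 0.44, 0.99 and 0.58 at 24 h. The 24 h samples spanned nearly the whole range seen in the 15 samples, and every group overlapped the untreated one. Differences from untreated were -0.16, -0.07, 0.16 and -0.10 (SE 0.14 each), and late against early it stood at 0.14 (SE 0.10, unadjusted p = 0.169). It was 0.06 there without 24 h replicate 2.

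At 2 h the transcripts of all 6 membrane proteins were lower than untreated, by -0.16 to -0.01. At 6 h 5 of 6 were lower, at 12 h 3 and at 24 h 4. Every such difference was less than 2 SEs. The other 4 are Lamp2, Scarb2, Npc1 and Cln3. Lamp2, which is also the receptor of chaperone-mediated autophagy, differed by -0.05 to 0.01 at the 4 times (SE 0.14). Scarb2, the receptor that carries glucocerebrosidase to lysosomes, was at -0.07, -0.07, -0.10 and 0.03 (SE 0.10). The third of these is the time at which its values lay apart, though not with the repeat array alone for untreated replicate 1. Npc1, which exports cholesterol from lysosomes, was at -0.12, -0.07, -0.11 and -0.10 (SE 0.12), and its untreated values of 1.78, 1.51 and 1.28 were wider apart than those of any treated group. Cln3, the membrane protein lost in juvenile Batten disease, was at -0.07, -0.13, -0.24 and -0.01 (SE 0.21). Of Cln3's values, the lowest (-5.31) was that of 12 h replicate 3 and the highest (-4.24) that of 24 h replicate 2.

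Of 5 lysosomal protease genes 4 had a higher mean at 2 h, 3 at 6 h, 3 at 12 h and 5 at 24 h. Differences ran from -0.10 to 0.20 over the 4 times, none past the test. Ctsd is the aspartic protease cathepsin D, made as a precursor and matured in the lysosome. Untreated values stood at 4.48, 4.47 and 4.47, the narrowest untreated group of any member (SD 0.0022). The first of these is the mean of 2 arrays that read 4.54 and 4.42. Treated values were 4.27, 4.57 and 4.65 at 2 h, 4.46, 4.41 and 4.57 at 6 h, 4.55, 4.48 and 4.75 at 12 h, and 4.52, 4.43 and 4.63 at 24 h. All 3 values at 12 h lay above the untreated ones, 1 of them barely. That value, 4.48, was below the first of the 2 arrays of untreated replicate 1, so the groups overlap where that array stands for the sample. At the other times values fell on both sides. The differences were 0.02, 0.00, 0.12 and 0.06 (SE 0.12 each, smallest unadjusted p = 0.318).

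The cysteine proteases Ctsb and Ctsl gave differences of 0.02, 0.00, 0.20 and 0.04 (SE 0.12) and of 0.10, 0.09, 0.18 and 0.04 (SE 0.14). The Ctsb value at 12 h came with 1 high sample, replicate 3 at 5.68, beside 5.33 and 5.35. Ctsa, a carboxypeptidase that also stabilises the sialidase and β-galactosidase, stayed between -0.04 and 0.04 (SE 0.11). Tpp1, the tripeptidyl peptidase of late infantile Batten disease, ran from -0.10 at 12 h to 0.14 at 24 h (SE 0.12).

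Among genes of glycosidases, lipid enzymes and their cofactors, 4 of 8 had a higher and 4 a lower mean over the 4 times. Neu1, the lysosomal sialidase, had the second smallest p of the members at 12 h. In untreated samples it stood at -1.70, -1.67 and -1.78. They were -1.69, -1.73 and -1.92 at 2 h, -1.72, -1.82 and -1.84 at 6 h, -1.91, -1.80 and -2.06 at 12 h, and -1.80, -1.59 and -1.68 at 24 h. The 12 h samples all lay below the untreated ones, and the 24 h samples lay around them. At 12 h Neu1 differed by -0.21 (SE 0.11, 95% interval -0.43 to 0.02, unadjusted p = 0.072, adjusted p = 0.997 by limma), and by -0.14 without 12 h replicate 3. Its differences at 2, 6 and 24 h were -0.06, -0.08 and 0.03.

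The remaining 7 of this group gave differences between -0.17 and 0.20 over the 4 times. Gaa, the acid α-glucosidase that degrades glycogen, was at -0.17 (SE 0.16) at 12 h, where replicate 3 stood at 0.16 and the other samples at 0.90 and 0.78. Psap, the precursor of the saposins that present lipids to hydrolases, was at 0.20 (SE 0.19) at 6 h, where replicate 2 stood at 2.43 and the others at 2.02 and 1.92. Hexa, the α subunit of β-hexosaminidase, was at 0.18 (SE 0.15) at 24 h, where replicate 2 stood at -1.12 and the others at -1.77 and -1.55. In each of these 3 genes 1 sample set the difference. Gusb, Npc2, Ppt1 and Lipa (β-glucuronidase, the luminal cholesterol carrier, the palmitoyl thioesterase and acid lipase) stayed between -0.14 and 0.09.

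The proton pump was represented by the genes of 3 subunits, with differences from -0.05 to 0.21 over the 4 times. Atp6v1h, the regulatory H subunit of the cytosolic part, had untreated values of 1.69, 1.65 and 1.62. Its values were 1.68, 1.68 and 1.72 at 2 h, 1.55, 1.61 and 1.77 at 6 h, 1.43, 1.74 and 1.98 at 12 h, and 1.80, 1.42 and 1.60 at 24 h. The untreated and 2 h values were close together and those at 12 and 24 h spread to both sides of them. The differences were 0.04, -0.01, 0.06 and -0.05 (SE 0.14 each). Averaged over the times it stood at 0.01 (SE 0.11), and the sign turned under quantile normalization (-0.01).

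Atp6v0d1, a subunit of the membrane part, was at 0.00, 0.15, 0.08 and 0.12 (SE 0.17), with untreated values as far apart as 1.77 and 2.35. Atp6v1a, the catalytic A subunit, was at 0.13, 0.11, 0.21 and -0.03 (SE 0.20). Its highest value, 3.31, was that of 12 h replicate 3 and its lowest, 2.26, that of 24 h replicate 2.

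Tfeb, the transcription factor that drives lysosomal genes, had the largest differences of the list and the widest spread. Its untreated values were -5.48, -5.48 and -5.01. They were -5.20, -3.95 and -4.72 at 2 h, -4.88, -5.42 and -4.06 at 6 h, -4.98, -4.76 and -5.04 at 12 h, and -5.14, -4.24 and -3.76 at 24 h. Of the 12 treated values 11 lay above the untreated mean and 8 above all 3 untreated values, while each treated group overlapped the untreated one. At 24 h the difference was 0.94 (SE 0.39, 1.92-fold, 95% interval 1.08-fold to 3.42-fold), with an unadjusted p of 0.029 and an adjusted p of 1.00 by limma. At 2, 6 and 12 h it was 0.70, 0.53 and 0.40 (SE 0.39 each), and in the mean of the 4 times 0.64 (SE 0.31, unadjusted p = 0.054).

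These values of Tfeb came from 1 dim probe. It was well above background on 15 of the 16 arrays and missed on the first array of untreated replicate 1, which read -5.85 against -5.12 on the repeat array. Its SD within groups was 0.54, where the median was 0.15 over the members and 0.20 over all features, and it was the only member with over 2 times the latter. With the repeat array alone the 24 h difference was 0.82, and within slide 1 and slide 2 it was 1.91 and 0.37. The value within slide 1 came from 24 h replicate 3 alone (-3.76), and its untreated side held that first array (-5.85). Under normexp background correction the 24 h difference was 0.48, and without 24 h replicate 3 it was 0.64. The differences of Tfeb kept their sign in these settings, and their size moved with each of them.

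**Figure D3:**
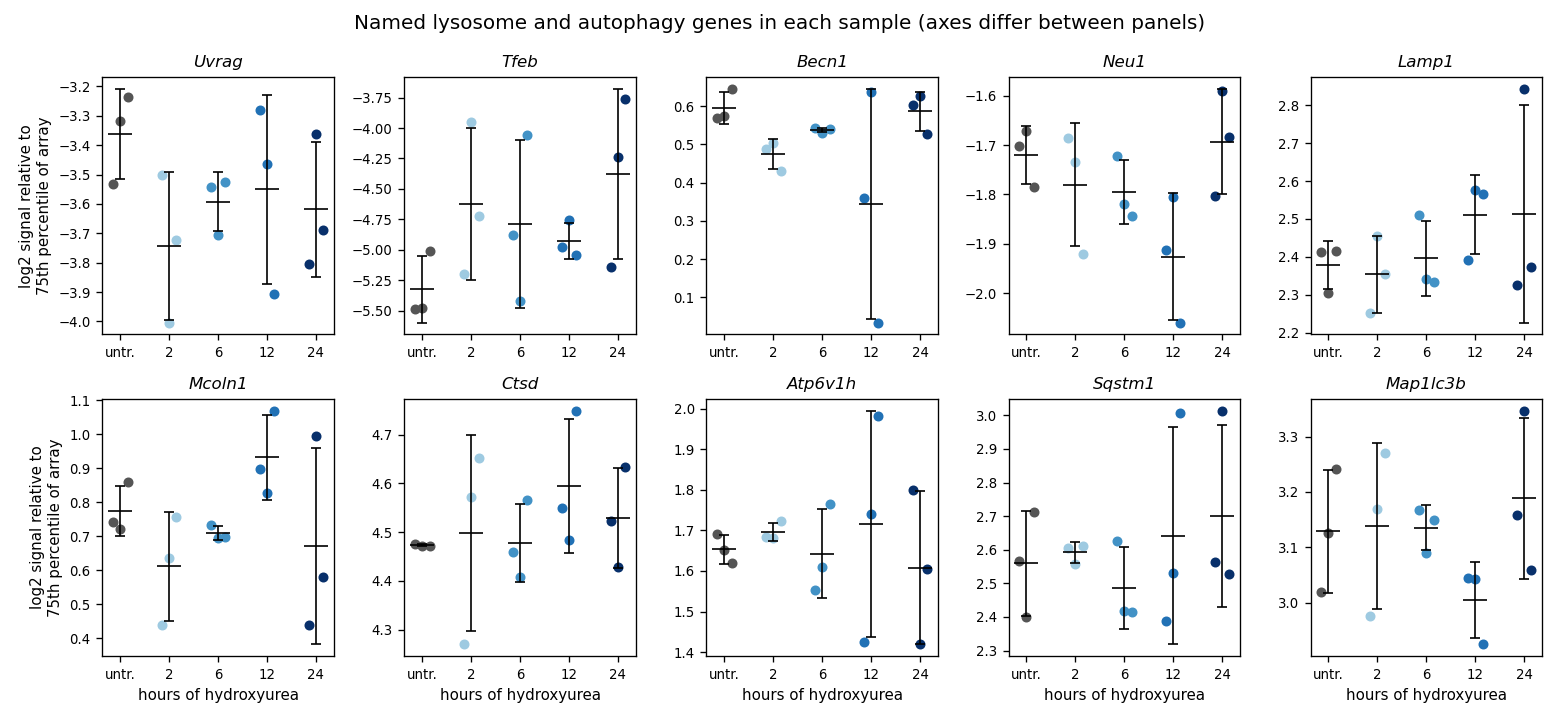
Log2 signal relative to the array's 75th percentile for the 10 members given sample by sample, with 3 samples per group (points), the group mean (wide bar) and the SD (whiskers), and an axis of its own in each panel. The treated groups of Tfeb centre above the untreated one at each time, with overlap, and the panels of the other 9 span between 0.42 and 0.77 log2 units.

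Genes that start an autophagosome showed both signs. Uvrag, a subunit of the Beclin 1 lipid kinase complex that acts in autophagosome maturation and endosome traffic, had untreated values of -3.53, -3.32 and -3.24. They were -3.50, -4.00 and -3.72 at 2 h, -3.54, -3.71 and -3.53 at 6 h, -3.28, -3.47 and -3.91 at 12 h, and -3.80, -3.36 and -3.69 at 24 h. Of the 12 treated values 10 lay below the untreated mean and 7 below all untreated values, and no treated value was above all of them. At 2 h it differed by -0.38 (SE 0.18, 95% interval -0.76 to -0.00), with an unadjusted p of 0.049 and an adjusted p of 1.00 by limma. Without 2 h replicate 2, the lowest of all, the difference was -0.25, and under normexp background correction it was -0.21. At 6, 12 and 24 h it was -0.23, -0.19 and -0.26 (SE 0.18 each), and in the mean of the 4 times -0.26 (SE 0.14, unadjusted p = 0.080).

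Becn1 encodes Beclin 1, the scaffold of the same kinase complex. Its untreated values were 0.57, 0.57 and 0.64. They were 0.49, 0.50 and 0.43 at 2 h, 0.54, 0.53 and 0.54 at 6 h, 0.36, 0.64 and 0.03 at 12 h, and 0.60, 0.63 and 0.53 at 24 h. At 2 and 6 h all 3 treated values lay below the untreated ones, by small steps, and at 12 and 24 h the groups overlapped. The 6 h values lay above the repeat array of untreated replicate 1 (0.525). At 6 h the groups thus overlap where that array stands for the sample. The differences were -0.12, -0.06, -0.25 and -0.01 (SE 0.13 each). The one at 12 h had the smallest p of the members at that time (unadjusted p = 0.065, adjusted p = 0.997 by limma) and rested on 12 h replicate 3, without which it was -0.10.

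Ulk1, the kinase that launches autophagy, was at 0.04, 0.02, 0.22 and 0.04 (SE 0.13). The value at 12 h came with replicate 3 at 3.09 beside 2.66 and 2.54. Wipi1, which binds the lipid made by the Beclin 1 complex and marks forming autophagosomes, was at 0.15, -0.04, 0.14 and 0.16 (SE 0.14). Its untreated values were -2.26, -2.32 and -2.33 and its 2 h values -2.21, -2.17 and -2.07, which lay just above them, while at 6 h they ran from -2.63 to -2.03.

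Transcripts of the conjugation machinery and its substrates stood near their untreated level. Atg5, Atg7 and Atg12 act in the ubiquitin-like reactions that attach Atg8 proteins to the membrane. Their differences ran from -0.08 to 0.13 over the 4 times, with SEs from 0.12 to 0.21, the largest for Atg7. Map1lc3b, the Atg8 protein LC3B that is the usual autophagosome marker, had untreated values of 3.02, 3.13 and 3.24. Its values were 2.98, 3.17 and 3.27 at 2 h, 3.17, 3.09 and 3.15 at 6 h, 3.05, 3.04 and 2.92 at 12 h, and 3.16, 3.35 and 3.06 at 24 h. Every group overlapped the untreated one, and the differences were 0.01, 0.01, -0.12 and 0.06 (SE 0.11 each).

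Its relatives Map1lc3a, Gabarap and Gabarapl1 stayed between -0.06 and 0.09 over the 4 times (SEs from 0.13 to 0.16). LC3 is also measured as the share of protein joined to lipid, which arrays of RNA do not read. The cargo receptor Sqstm1, known as p62, binds ubiquitinated cargo and LC3 and is itself degraded by autophagy. Untreated samples stood at 2.57, 2.40 and 2.71. They were 2.61, 2.56 and 2.61 at 2 h, 2.63, 2.42 and 2.41 at 6 h, 2.39, 2.53 and 3.01 at 12 h, and 2.56, 3.01 and 2.53 at 24 h. The 2 high values were those of 12 h replicate 3 and 24 h replicate 2, and the other samples overlapped the untreated ones. The differences of Sqstm1 were 0.03, -0.07, 0.08 and 0.14 (SE 0.17 each). Without those samples they were -0.10 at 12 h and -0.01 at 24 h.

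**Figure D4:**
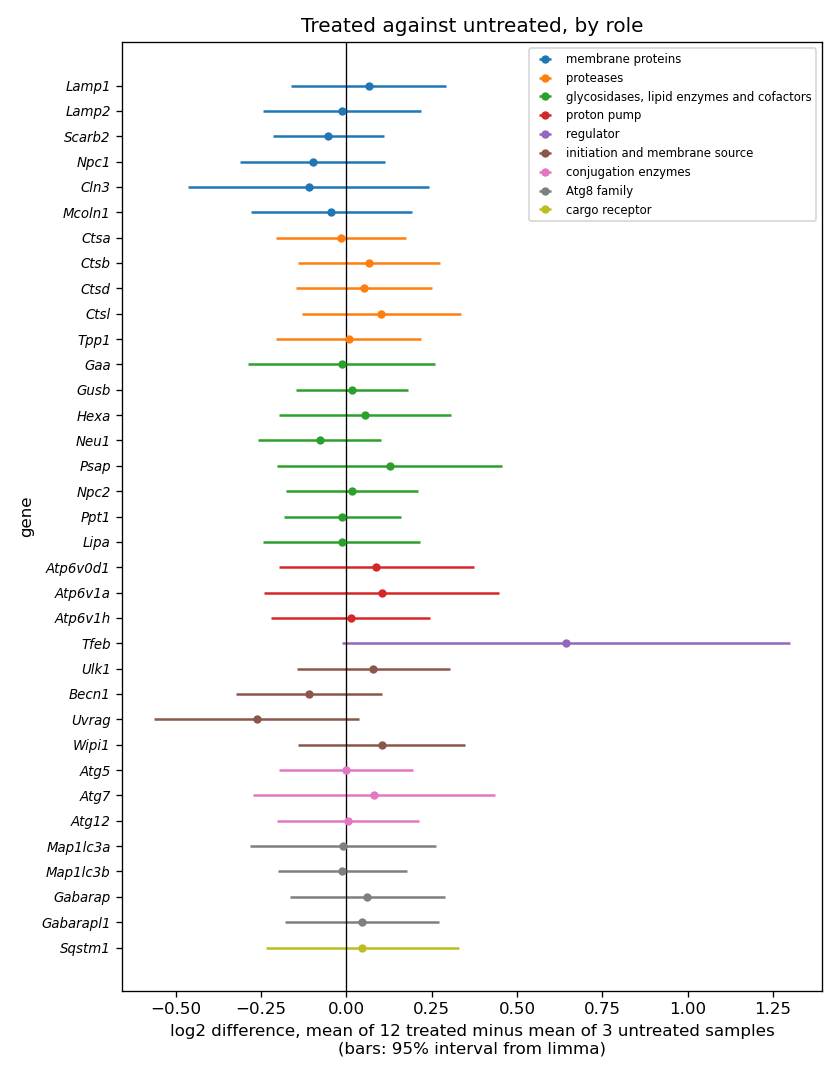
Log2 difference of each measured member, mean of the 12 treated minus mean of the 3 untreated samples, with its 95% interval from limma, ordered and coloured by role. All 35 intervals include 0, and that of Tfeb, from -0.01 to 1.30, is the widest.

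The 5 members whose promoter holds TCACGTGA did not differ in one direction. Over the 4 times Lamp1, Ctsd and Atp6v0d1 stood at 0.07, 0.05 and 0.09 (SEs 0.11, 0.09 and 0.13). Cln3 and Mcoln1 stood at -0.11 and -0.04 (SEs 0.16 and 0.11). At 24 h, where Tfeb's own difference was largest, they were at 0.13, 0.06 and 0.12 and at -0.01 and -0.10 in the same order. Whether these values are linked to TFEB was not tested. None passed the test, and the share called over all features was 0% as above.

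Extreme values of the members gathered in a few samples. The sample 24 h replicate 2 was the highest of all 15 for 16 of the 35 members and the lowest for 3, and 26 members lay above the untreated mean there, with a median deviation of 0.13. The median deviation over all features in that sample was 0.05. The sample 12 h replicate 3, whose spots scattered most, was the highest for 10 members and the lowest for 9. Untreated replicate 1 was the highest for 2 and the lowest for 4, and 2 h replicate 1 the lowest for 5. The 2 arrays of untreated replicate 1 differed by over 1 log2 unit for 0 of 35 members, while 701 features (3.87% of 18107) did so.

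The 7 genes with a second probe allowed a check within the array. Over the 4 times the 2 probes differed in sign for 3 of them. Atp6v1a was at 0.10 by the brighter, tested probe and at -0.01 by the other. Npc1 was at -0.10 and 0.05, and Sqstm1 at 0.05 and -0.11. Those of Atg5 were at -0.00 and -0.04, those of Gabarapl1 both at 0.05, and those of Map1lc3b at -0.01 and -0.05. For Gusb the dimmer probe gave 0.47 where the tested one gave 0.02. That dimmer probe read -6.01 on the first array of untreated replicate 1, where it was not well above background, and -4.05 on the repeat array.

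The rest of the pathway, 154 further genes of which 128 were measured, gave no call in either direction in any comparison (0 of 128 higher and 0 lower by limma at an adjusted p of 0.05). At an unadjusted p under 0.05 there were 2 at 12 h, the β-galactosidase gene Glb1 (0.25, SE 0.11) and the channel gene Mcoln3 (0.54, SE 0.21), both named after their values were seen. Without 12 h replicate 3 they were at 0.18 and 0.46, and Mcoln3 was at 0.40 without untreated replicate 1. There were 4 for the times averaged, Grn, Pink1, Tfe3 and Atp6v1g2, and 0 in the other 4 comparisons. The shares of all features with such a p were 2.32% at 12 h and 1.68% for the times averaged. Higher means were held by 54 of 128 at 2 h, 73 at 6 h, 72 at 12 h, 86 at 24 h and 73 over all treated samples, with median differences of -0.01, 0.01, 0.03, 0.05 and 0.01. The shares of all features higher in the same comparisons were 50.5%, 47.9%, 55.4%, 54.6% and 50.9%. As with the members, the count at 24 h moved with 24 h replicate 2, without which 66 of 128 were higher and the median was 0.02.

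By arm, the genes higher at 24 h were 21 of 24 further hydrolases and activators (12 without 24 h replicate 2), 13 of 19 membrane proteins (8) and 9 of 15 proton pump genes (8). They were 11 of 15 genes of the mTORC1 and Rag arm (8), both measured relatives of TFEB (2) and 3 of 6 sorting genes (5). Of the TFEB relatives, Tfe3 had 24 h values of 1.19, 1.19 and 1.39 and untreated ones of -1.95, 1.36 and 1.16. Its low untreated value, like those of Grn and Pink1 in their arms, was that of untreated replicate 1, as given below. The mTORC1 and Rag arm as listed includes Tsc1 and Tsc2, so its count has no single direction for TFEB. Of the autophagy arms, 2 of 4 genes of the ULK complex (2), 1 of 4 of the lipid kinase complex (2), 6 of 8 of membrane source and lipid binding (3) and 1 of 7 of conjugation (5) were higher. The last arms were cargo receptors with 8 of 13 (7) and fusion with 9 of 11 (4).

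Among the genes named for the mean of the 4 times, the differences of Grn, Pink1 and Tfe3 rested on the first array of untreated replicate 1. Grn encodes progranulin, a lysosomal glycoprotein lost in a form of frontotemporal dementia. It stood at 0.74 (SE 0.29) in the mean of the 4 times, with untreated values of -0.19, 1.73 and 1.75 and treated ones from 1.69 to 2.10. The first array of untreated replicate 1 read -2.21 and its repeat 1.84, and without that sample the difference was 0.09. Pink1, the kinase that marks damaged mitochondria for autophagy, stood at 0.41 (SE 0.17), and at 0.04 without that sample. Tfe3, the paralog of Tfeb, was looked up after its values were seen and stood at 1.06 (SE 0.47). It read -5.13 on the first array and 1.22 on the repeat, and its difference was -0.01 without the sample.

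In the other direction the proton pump subunits Atp6v1g2 and Atp6v0e2 stood at -0.24 (SE 0.11) and -0.12 (SE 0.09) in the mean of the 4 times. Without untreated replicate 1 they were at -0.22 and -0.03. With its repeat array alone they were at -0.11 and 0.02, and under normexp background correction at -0.09 and 0.10. Averaged over its probes, Atp6v1g2 was at -0.12. None of these 5 genes passed the test (adjusted p = 1.00 for each by limma).

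Markers of cell types were read for whether they were detected and how far they lay from untreated, which gives no proportions of cells. All 7 measured neuron markers of 8 listed were well above background on every array, and so were all 8 astrocyte markers, 4 of 8 for microglia, 7 of 8 for the oligodendrocyte lineage, 2 of 5 for endothelium and 5 of 6 for fibroblasts and pericytes. Itgam and Ctss of microglia, Cldn5, Flt1 and Tek of endothelium and Rgs5 of pericytes were on no array well above background. As many of the members are expressed by glia as well as neurons, each type's mean log2 deviation from untreated was set beside the groups. The neuron mean ranged from -0.08 to 0.13 in untreated samples and from -0.16 to 0.41 in treated ones, the highest being 12 h replicate 3. The astrocyte mean ranged from -0.05 to 0.07 in untreated and from 0.04 to 0.34 in treated samples, with mean differences of 0.11, 0.11, 0.22 and 0.13 at the 4 times and 0 markers called.

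Microglia means ranged from -0.16 to 0.16 in untreated and from -0.22 to 0.31 in treated samples, and those of the oligodendrocyte lineage from -0.04 to 0.08 and from -0.20 to 0.21. Both were at 0.21 in 24 h replicate 2, where the members were most often highest. The highest microglia mean, 0.31, was that of 12 h replicate 1, where 0 members were highest and their median deviation was -0.05. Endothelial means ranged from -0.33 to 0.31 and from -0.55 to 0.32. Fibroblast and pericyte means ranged from -0.61 to 0.47 and from -0.81 to 0.74, wider within each group than between groups. In these bulk samples more cells of a type and more RNA per cell cannot be told apart, and the part of cell make-up in the members' values was not tested.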

How the data were processed

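The scanner files give the intensity of each spot, background-subtracted and unscaled between arrays, as exported per the file headers by Feature Extraction version 11.5.1.1 (Agilent, protocol GE1_1105_Oct12). The authors deposited 1 standard score per spot and array, with medians from -0.03 to 0.03. They served only as an alternative, returned to log2 units by the mean SD of the arrays. From the 62976 spots of each array, 4259 control spots and all outlier-flagged spots were removed. The 30367 probes were named through RefSeq accessions (18758 matched 15715 symbols, 11609 stayed unnamed and were tested by probe). Spots of a probe were averaged, the brightest probe of a gene was used, and a filter asked for signal well above background on all arrays of 1 group or more and for a usable spot everywhere.

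Groups were compared in 1 fit of the 15 samples with limma 3.58.1 in R 4.3.3 (with version 1.17.8 of data.table; degrees of freedom 10 residual, 3.56 prior), two-sided and with no covariate, after the scripts were tested on simulated data. The members and gene lists were chosen with earlier results of these data known. Members given in full were the 2 with the smallest unadjusted p in each comparison with untreated and late against early, plus 1 reference gene per role; further pathway genes were the 2 with the smallest p in each direction in the mean of the 4 times. Alternatives were quantile normalization, Z-scores, normexp (offset 50, on median signals), the array median over detected probes (chosen after seeing the data), filters, probe choice, either array of untreated replicate 1, replicate and slide blocks, each slide alone, array weights and leaving out each sample. The number of arrays limits the precision. No array coordinates were used.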

Additional observations from a re-analysis of the deposited data

How the results depend on the processing

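The adjusted p of the members was above 0.05 in every comparison and setting run. Counts over all features were 0 except in the exchanged block below, within slide 2 alone (6 at 2 h, 51 at 6 h, 1 in the mean of the 4 times, 39 late against early and 51 among the times), within slide 1 alone (16 at 12 h and 8 at 24 h), and when 1 sample was left out (0 to 2 at 6 h, late against early and among the times, the 2 without 6 h replicate 1, and 0 to 1 at 24 h, the 1 without 24 h replicate 2). In fits of a slide some groups hold 1 sample, assumed to vary like the others. The members' median at 12 h was -0.0236 within slide 1, -0.0060 with array weights and -0.0106 to 0.0850 leaving out 1 sample; at 24 h it was 0.0930 within slide 2 and -0.0191 to 0.0732 leaving out 1 sample. Leaving out 1 sample it was -0.0250 to 0.0487 at 2 h and -0.0265 to 0.0139 at 6 h. Members with a higher mean numbered 28 for the 4 times averaged within slide 2, and 13 to 25 at 2 h, 11 to 22 at 6 h and 14 to 27 at 24 h leaving out 1 sample. Signs turned for Lamp1 late against early (-0.0080 within slide 1). In the mean of the 4 times they turned for Atp6v1h (-0.0068 by quantile normalization, -0.0056 by normexp, -0.0019 with the first array of untreated replicate 1, -0.1181 within slide 1, -0.0213 to 0.0482 leaving out 1 sample), Sqstm1 (-0.0317 over its probes, -0.0341 to 0.1218 leaving out 1 sample) and Map1lc3b (0.0257 by Z-score, 0.0263 with deposited scores, 0.0300 within slide 2, 0.0076 within slide 1, -0.0668 to 0.0440 leaving out 1 sample). The causes were not tested. Asking for signal on every array leaves no value for Tfeb.

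No label ties same-numbered samples to a shared culture or day, and not every such pair correlated above 0.1, so numbers were not taken as pairs: 19 of 30 correlated above 0.1 (median 0.13, from -0.42 to 0.42), against 11 of 60 others (median -0.08). With 24 h replicates 1 and 3 exchanged, as in the deposited scores, 24 of 30 did (median 0.19, lowest 0.01), against 6 of 60. A sample's best correlation was with its own number for 7 of 15 samples, and for 13 of 15 with the exchange, a hint from the data and not the design. The replicate block called 0 features in each comparison, and with the exchange 1 in the mean of the 4 times, no member.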

Other observations

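Fibroblast and pericyte markers followed the replicate numbers. Their mean log2 deviation was between -0.81 and -0.61 in every replicate 2, untreated and treated. In replicate 3 it was between 0.32 and 0.74 in the untreated, 2, 6 and 12 h groups, and in replicate 1 of those groups between -0.16 and 0.14. At 24 h replicate 1 stood at 0.50 and replicate 3 at -0.28. These are the 2 samples whose deposited scores match each other's arrays. The group means of the members do not depend on which of them is which.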
